A study of Mus musculus with 6 samples.

Results

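Neuropeptide signalling was described in the injured mouse spinal cord through 48 genes: 22 precursor genes, 9 genes for granins and processing enzymes, and 17 receptor genes. They were taken by gene symbol from a table of raw read counts for 54532 genes, in which each symbol occurred once. The 6 columns used are libraries of total RNA of spinal cord, all from injured mice of the C57BL/6J strain. Of these, 3 came from mice with rotarod training, in which the animal walks on a turning rod to avoid falling, and 3 from mice without it. Where values are given per library they follow the order of replicates 1, 2 and 3. All 6 carry the time label of 28 days, counted from training. The injury was shared by both groups, so no uninjured level is given here. The labels do not state the level and severity of the injury, the age of the mice, any pooling of animals, or that each library came from its own mouse. A p-value therefore refers to the spread between libraries only, part or all of which may be technical. The comparison asked how expression in the injured cord differed with training.

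Neuropeptides are made as long precursors that enter the secretory pathway, are sorted with granins into dense-core vesicles, and are cut at pairs of basic residues by prohormone convertases. Carboxypeptidase E trims the basic residues left behind, and peptidylglycine alpha-amidating monooxygenase amidates the end of many peptides. The released peptides act mostly on G protein-coupled receptors. In the cord many of these genes mark populations of dorsal horn interneurons that process touch, itch and pain, and others are expressed by motor neurons or by the sensory ganglion neurons whose axons enter the dorsal horn. Reln is a secreted matrix glycoprotein and not a peptide precursor, and is kept here only as the list holds it.

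Promoters of some of these genes hold the cAMP response element (CRE), the site of CREB-family transcription factors. Promoter windows from RefSeq (GRCm38.p6, 250 bases before to 50 after the start) were held for 38 of the 48 genes. The full element TGACGTCA, which reads the same on both strands, was found in 5 of these 38 (13.2%) and in 549 of 27025 genes (2.03%) with a window of the same length. Its core, TGACG on either strand, which the full element contains, was found in 24 of 38 (63.2%) and in 23.0% of all genes with a window. The core was found in 11 of 16 precursor, 6 of 8 granin and processing and 7 of 14 receptor windows. The 5 genes with the full element are shown because they include Sst and Sstr2, the genes of a peptide and its receptor that are set side by side below. Each line gives 30 bases around the element, on the gene's strand, with the element in capitals. The stretches are chr16:23890874-23890903 for Sst (minus strand), chr11:113619258-113619287 for Sstr2 (plus), chr13:75089768-75089797 for Pcsk1 (plus), chr2:132781559-132781588 for Chgb (plus) and chr13:99900777-99900806 for Cartpt (minus).
Sst: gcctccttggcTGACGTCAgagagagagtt
Sstr2: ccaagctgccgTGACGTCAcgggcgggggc
Pcsk1: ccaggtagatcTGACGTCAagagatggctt
Chgb: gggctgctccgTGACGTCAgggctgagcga
Cartpt: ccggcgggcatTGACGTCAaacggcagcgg
The first base of the element lay 48 bases upstream of the RefSeq start in Sst, 58 in Sstr2, 72 in Chgb, 78 in Pcsk1 and 112 in Cartpt. In Sst, Chgb and Cartpt the GENCODE M21 annotation holds an exon on the same strand that overlaps the printed stretch, in whole or in part. By the positions of the count table, the stretches of Sst, Chgb and Cartpt lie inside the gene's own span, which overlaps no other gene there. Those of Sstr2 and Pcsk1 lie before the gene's span. Whether the exon covers the element itself was not checked. Of the 9 genes with the smallest p below, Sst, Sstr2 and Pcsk1 held the full element, Trh the core alone, and Tac2, Npy and Pcsk1n neither. Penk and Pnoc had no window. Chgb and Cartpt, which also held the full element, were not among these 9, with log2 fold changes of -0.014 and 0.39. Whether the element went with the fold change was not tested. A match describes the letters of the window and is no evidence that a factor bound there.

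Total counts were 15814104 to 26092014 per library, highest in trained replicate 1, and 3 counts, the floor for an undetected gene, corresponded to 0.116 to 0.192 CPM (read counts scaled to library size, with TMM factors). Markers of the labelled tissue were present in every library, including the oligodendrocyte list at 33858 to 42926 summed CPM and the neuron list at 8795 to 10629. Libraries stood apart in peripheral nerve RNA: Prx, the periaxin gene of myelinating Schwann cells, was at 0.581 CPM in trained replicate 1, 99.7 and 48.2 in trained replicates 2 and 3, and 46.0 to 81.4 in the untrained libraries. Prx overlaps Gm15541, and reads of the overlap may belong to either. The Schwann cell list (9 of 10 genes tested) summed to 26.6 to 902 CPM in trained and 498 to 807 CPM in untrained cord. Its gene Pmp2, not tested, had 0, 2 and 0 counts in the trained and 1, 7 and 0 in the untrained libraries. Pmp2 was thus above the floor of 3 counts in untrained replicate 2 only. In bulk tissue fewer cells of a type and less RNA per cell cannot be told apart.

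Of the 48 genes 47 passed the filter on low counts and entered the test. Npff, the neuropeptide FF precursor gene, did not, with 5 to 10 counts per library. No member passed the test between trained and untrained cord at an adjusted p of 0.05 (edgeR quasi-likelihood, Benjamini-Hochberg over 16909 genes), against 0.0591% of all genes tested. At an unadjusted p below 0.05 there were 9 members, all of them higher in trained cord: Sst, Pnoc, Penk, Tac2, Trh and Npy among the precursors, Pcsk1n and Pcsk1 among the processing genes, and Sstr2 among the receptors. Of all genes tested 4.47% were higher at that p and 5.55% lower. At the same adjusted threshold DESeq2 called 2 members, Sst and Pcsk1n, both higher in trained cord, against 92 (0.608%) of the 15123 genes to which it gave an adjusted p. Limma-voom called 0 members, against 0.0710% of all genes tested. Without a filter on low counts edgeR called 4 members (Sst, Pnoc, Tac2 and Pcsk1n), against 0.909% of the 30362 genes in that fit, and without trained replicate 3 it called 4 (Sst, Pnoc, Penk and Cck), against 1.29% of 17181.

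**Figure D1:**
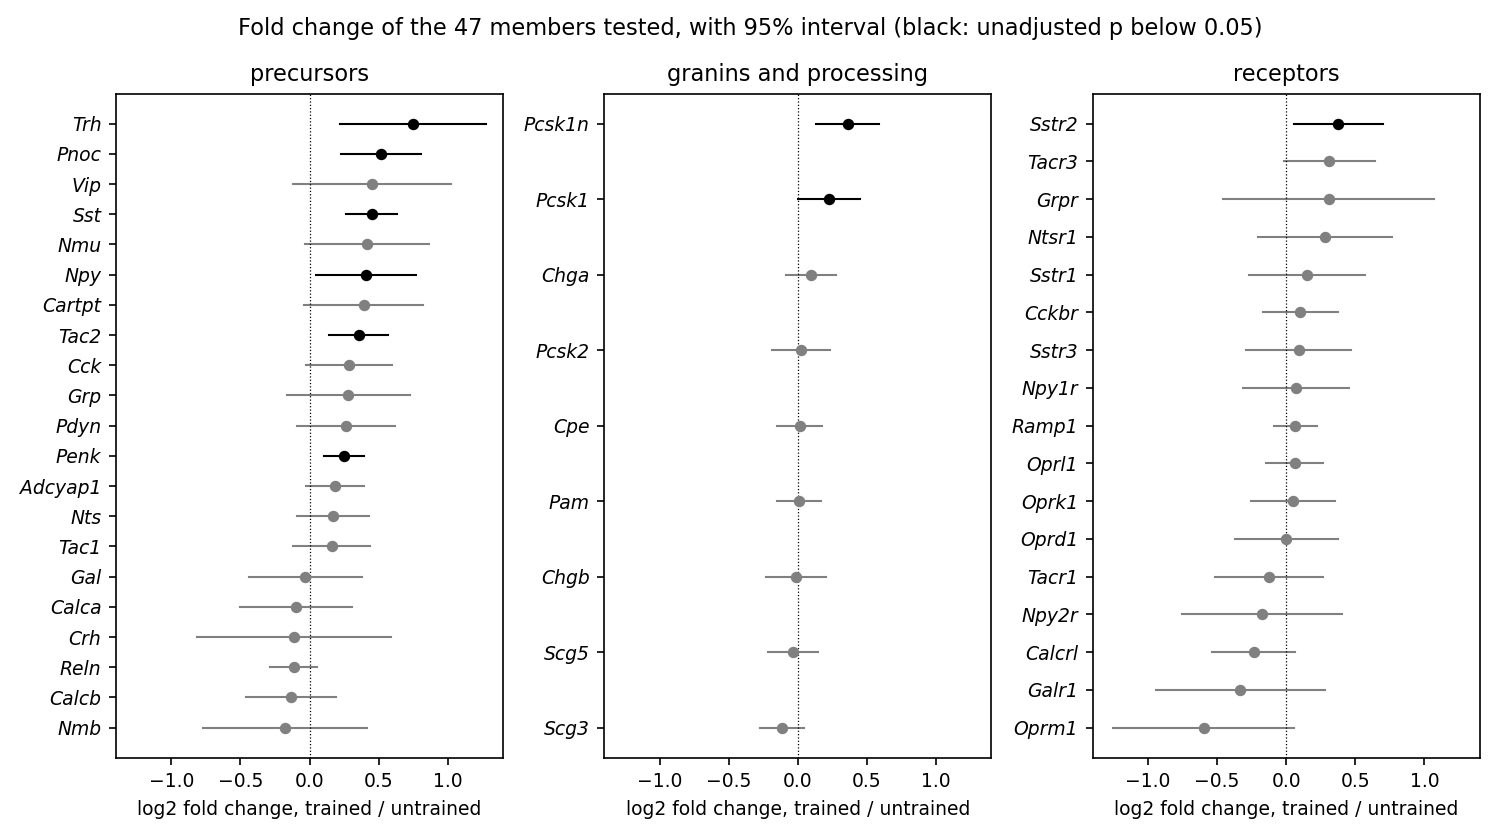
Log2 fold change (trained over untrained, horizontal axis) of the 47 genes tested, in 3 panels by role, with the 95% interval of the edgeR fit as a line. Black genes had an unadjusted p below 0.05, and all 9 of them lie to the right of 0.

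The precursors were the role group with the largest median difference, a log2 fold change of 0.27 over 21 genes tested, against -0.0080 over all genes tested. The list was chosen with earlier results of these data known, so contrasts with all genes describe it and were not tested. Fold changes were positive in 15 of the 21 and negative in 6, and positive in 8123 of all 16909. In 5 precursors every trained library lay above every untrained one, and in 0 below, against 8.13% and 8.69% of all genes tested. The summed level of the 22 precursor genes was 732, 740 and 706 CPM in the trained libraries, against 638, 649 and 616 in the untrained ones, so the groups did not overlap. Penk, Sst and Reln supply the largest parts of that sum, and of these Reln was lower in trained cord. Such a gap was not particular to the precursors. Granins and processing genes summed to 3507 to 3853 CPM in trained and 3427 to 3497 in untrained cord. Further precursors, listed below, summed to 680 to 728 and 601 to 649 CPM. Further processing genes were apart the other way, at 1549 to 1635 and 1641 to 1725 CPM. The receptor sums overlapped. The neuron list did not separate the groups. It summed to 10478, 10295 and 8795 CPM in the trained and 9441, 10428 and 10629 in the untrained ones. Of its 14 genes 7 had a positive and 7 a negative fold change, with 0 past the adjusted threshold and Uchl1 (0.21) and Map2 (-0.19) at an unadjusted edgeR p below 0.05.

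Sst, the somatostatin precursor gene, was expressed at 121, 125 and 99.8 CPM in the trained libraries, against 87.7, 81.2 and 84.3 in the untrained ones. All 3 trained libraries were above all 3 untrained ones, and trained replicate 3 was the nearest to them. Somatostatin marks a large population of excitatory dorsal horn interneurons and some inhibitory neurons, and acts on receptors that inhibit their target cells. The means were 115 ± 13.5 and 84.4 ± 3.22 CPM (SD, n = 3 per group), a 1.37-fold difference. The log2 fold change was 0.45 ± 0.09 (SE), with a 95% interval of 0.26 to 0.64, an unadjusted edgeR p of 0.000174 and an adjusted p of 0.111, and Sst ranked 25 of 16909 genes by p. The result depended on the fit: the adjusted p was 0.00349 in DESeq2, 1.28e-05 in edgeR without a filter on low counts and 0.00153 in edgeR without trained replicate 3. In the other 11 alternatives it was 0.0911 to 0.435, and the log2 fold change was positive in all 14.

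**Figure D2:**
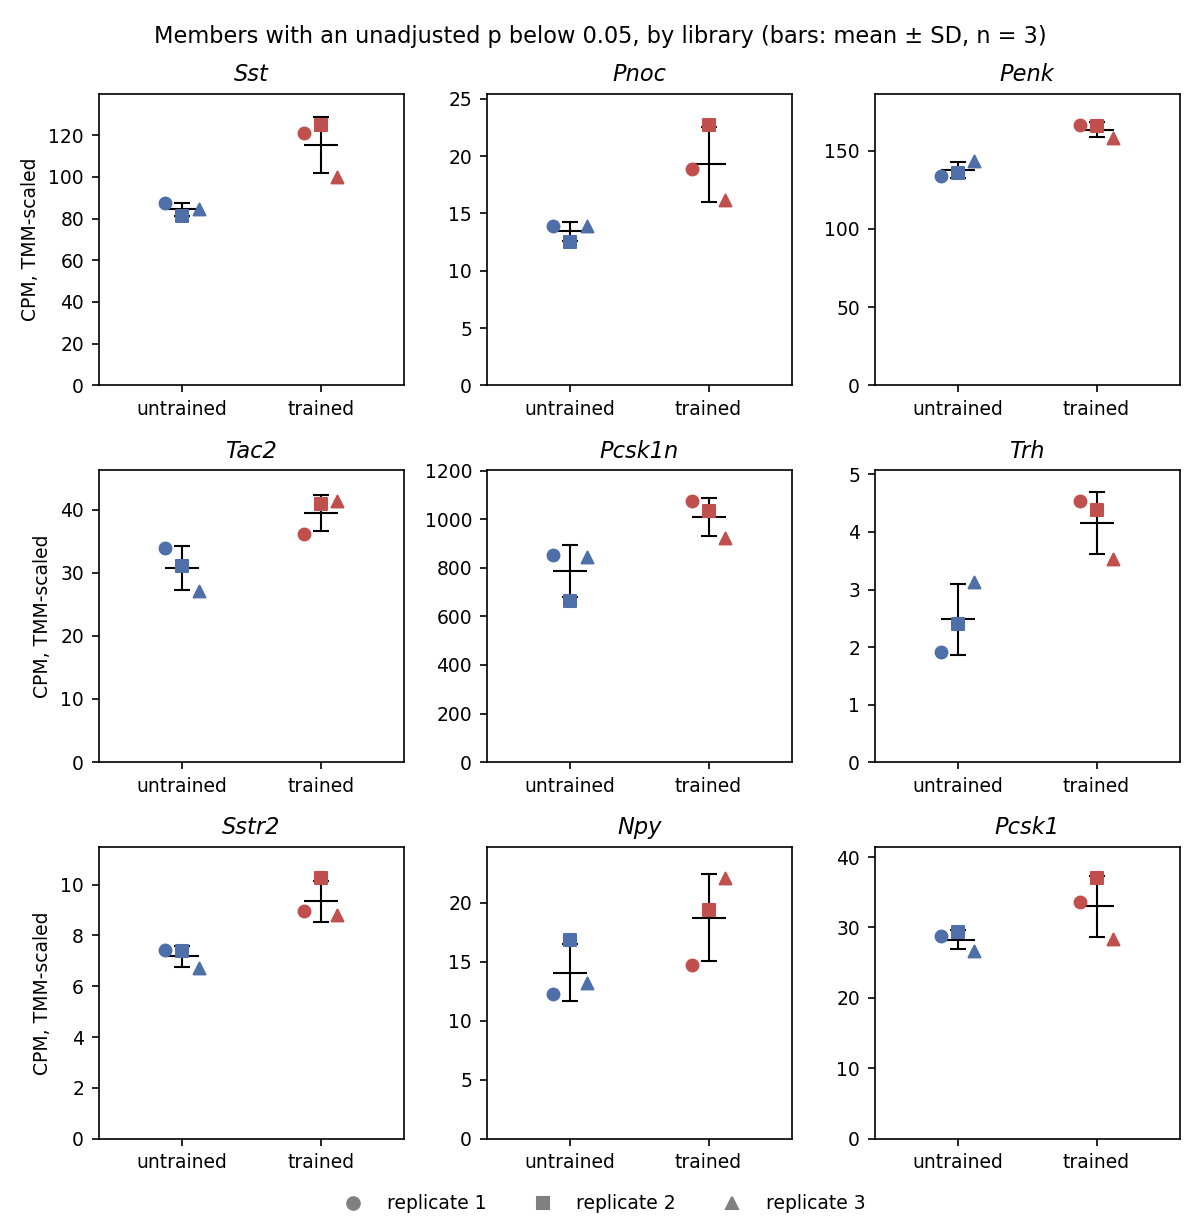
CPM (TMM-scaled, vertical axis from 0) of the 9 genes with an unadjusted p below 0.05 in each library, ordered by p, with the mean and SD of each group and 1 marker shape per replicate number. The groups do not overlap for Sst, Pnoc, Penk, Tac2, Pcsk1n, Trh and Sstr2, and overlap for Npy and Pcsk1.

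The opioid precursors came next. Penk, which encodes the enkephalins, was at 167, 166 and 158 CPM in the trained libraries, against 134, 135 and 143 in the untrained ones. The groups were apart by a small margin relative to the level, with little spread inside each. The means were 163.5 ± 4.88 and 138 ± 4.99 CPM (SD, n = 3 per group), and the log2 fold change was 0.25 ± 0.07 (edgeR adjusted p = 0.268).

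Pnoc, the precursor of nociceptin, a peptide of inhibitory dorsal horn neurons, was at 18.9, 22.7 and 16.2 CPM in the trained libraries, against 13.9, 12.5 and 13.9 in the untrained ones. Here the trained libraries differed among themselves more than the untrained ones did. Its log2 fold change was 0.52 ± 0.13 (edgeR adjusted p = 0.244). Pdyn, which encodes the dynorphins and marks another set of inhibitory neurons, had a log2 fold change of 0.27 with overlapping groups, and 0.13 without trained replicate 2. Without trained replicate 3 the edgeR adjusted p was 0.0416 for Penk and 0.0222 for Pnoc, and without a filter on low counts it was 0.0122 for Pnoc. Over the 14 alternatives the adjusted p ran from 0.0416 to 0.775 for Penk and from 0.0122 to 0.815 for Pnoc.

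The tachykinin precursors are Tac1, the gene of substance P and neurokinin A, and Tac2, the gene of neurokinin B. Tac2, of excitatory neurons in the inner superficial dorsal horn, was at 36.2, 40.8 and 41.3 CPM in the trained libraries, against 34.0, 31.1 and 27.2 in the untrained ones. The lowest trained and the highest untrained library, both replicate 1, lay close together. The log2 fold change was 0.35 ± 0.10 (edgeR adjusted p = 0.268), and the adjusted p was 0.0252 without a filter on low counts, within 0.0252 to 0.905 over the 14 alternatives. Tac1 was at 29.3, 29.0 and 25.5 CPM in the trained libraries, against 21.4, 30.5 and 23.3 CPM in untrained cord. Untrained replicate 2 was the highest of all 6 libraries for Tac1, so the groups overlapped, with a log2 fold change of 0.16 ± 0.13 (edgeR adjusted p = 0.717) and a 95% interval of -0.12 to 0.44. It was 0.063 without untrained replicate 1 and 0.33 without untrained replicate 2.

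Trh, the thyrotropin-releasing hormone precursor gene, had the largest fold change of the precursors at a low level. It was at 4.53, 4.39 and 3.54 CPM in the trained libraries, against 1.91, 2.40 and 3.13 in the untrained ones. Its read counts were 57 to 117 in the trained and 35 to 49 in the untrained libraries. The groups were apart, with trained replicate 3 and untrained replicate 3 closest to each other. Its log2 fold change was 0.75 ± 0.24, a 1.68-fold difference (edgeR adjusted p = 0.346).

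Npy, the gene of neuropeptide Y, a peptide of inhibitory interneurons, was at 14.8, 19.4 and 22.1 CPM in the trained libraries, against 12.2, 16.8 and 13.2 in the untrained ones. Untrained replicate 2 lay above trained replicate 1, so the groups overlapped, and the log2 fold change was 0.41 ± 0.17 (edgeR adjusted p = 0.448).

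The remaining precursors had log2 fold changes between -0.18 and 0.45, and their groups overlapped in each. Positive values were those of Cck (cholecystokinin) at 0.28, Nts (neurotensin) at 0.17, Grp (gastrin-releasing peptide, known for its role in itch) at 0.28, Nmu (neuromedin U) at 0.42, Adcyap1 (the peptide PACAP) at 0.18, Vip (vasoactive intestinal peptide) at 0.45 and Cartpt (the CART peptides) at 0.39. Cck had an edgeR adjusted p of 0.526 with all libraries and 0.0242 without trained replicate 3, within 0.0242 to 0.905 over the alternatives. Its log2 fold change was 0.15 without trained replicate 2 and 0.46 without trained replicate 3. Vip was at 0.16 without trained replicate 1. Nts and Nmu were lowest without trained replicate 2 (0.086 and 0.25), and Grp without untrained replicate 3 (0.14). Cartpt was at 21.2 CPM in trained replicate 1, and the other 5 libraries lay between 11.8 and 13.6. Without trained replicate 1 its log2 fold change was 0.09. Negative values were those of Crh (corticotropin-releasing hormone, -0.11), Gal (galanin, -0.030), Nmb (neuromedin B, -0.18), Calca, Calcb and Reln (-0.11). Nmb shares 188 bases with Sec11a on the same strand, so its reads are uncertain there.

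Calca and Calcb encode the alpha and beta forms of calcitonin gene-related peptide, which sensory ganglion neurons and motor neurons make. Reads of Calca also come from its calcitonin transcript, and the table does not split them. Calca was at 56.7, 50.03 and 75.1 CPM in the trained libraries, against 66.0, 72.7 and 55.5 in the untrained ones. The highest and the lowest of the 6 values were both in trained cord. Its log2 fold change was -0.10 ± 0.17 (edgeR adjusted p = 0.892), with a 95% interval of -0.50 to 0.31, and that of Calcb was -0.14 ± 0.15. Calca stood at 0.021 when trained replicate 2 was left out and at -0.26 when trained replicate 3 was.

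Genes of sensory ganglion neurons differed between libraries in both groups. Scn10a, a sodium channel gene of nociceptors, was at 0, 0.124 and 3.48 CPM in the trained libraries, against 0, 9.19 and 3.32 in the untrained ones. Avil, another defining gene of these neurons, was at 0.697, 0.309 and 5.34 CPM in the trained libraries, against 0.765, 10.4 and 3.90 in the untrained ones. The list of 12 genes, of which 10 were tested, summed to 20.02 to 38.7 CPM in trained and 26.9 to 62.0 CPM in untrained cord. Fold changes were negative in 9 of the 10, with 0 past the adjusted threshold. Trpm8 (-0.74) and Runx1 (-0.61) were, among others, at an unadjusted edgeR p below 0.05. Runx1 was highest in untrained replicate 1, at 12.5 CPM, where Scn10a was at 0. Pou4f1, also of the list, was at 8.19 to 10.6 CPM in every library, so the sums do not follow Scn10a alone. Mrgprd was at 0 in trained replicates 1 and 2 and untrained replicate 1, and Mrgprx1 in these and untrained replicate 3. The libraries with the highest Calca in each group, trained replicate 3 and untrained replicate 2, were also those with the highest Scn10a, while untrained replicate 1 had Calca at 66.0 CPM with Scn10a at 0. The part of ganglion RNA in the Calca values was not tested. For Sst, which some ganglion neurons also express, the highest values stood in trained replicates 1 and 2, where Scn10a was at 0 and 0.124 CPM. The part of ganglion RNA in the Sst values was not tested.

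**Figure D3:**
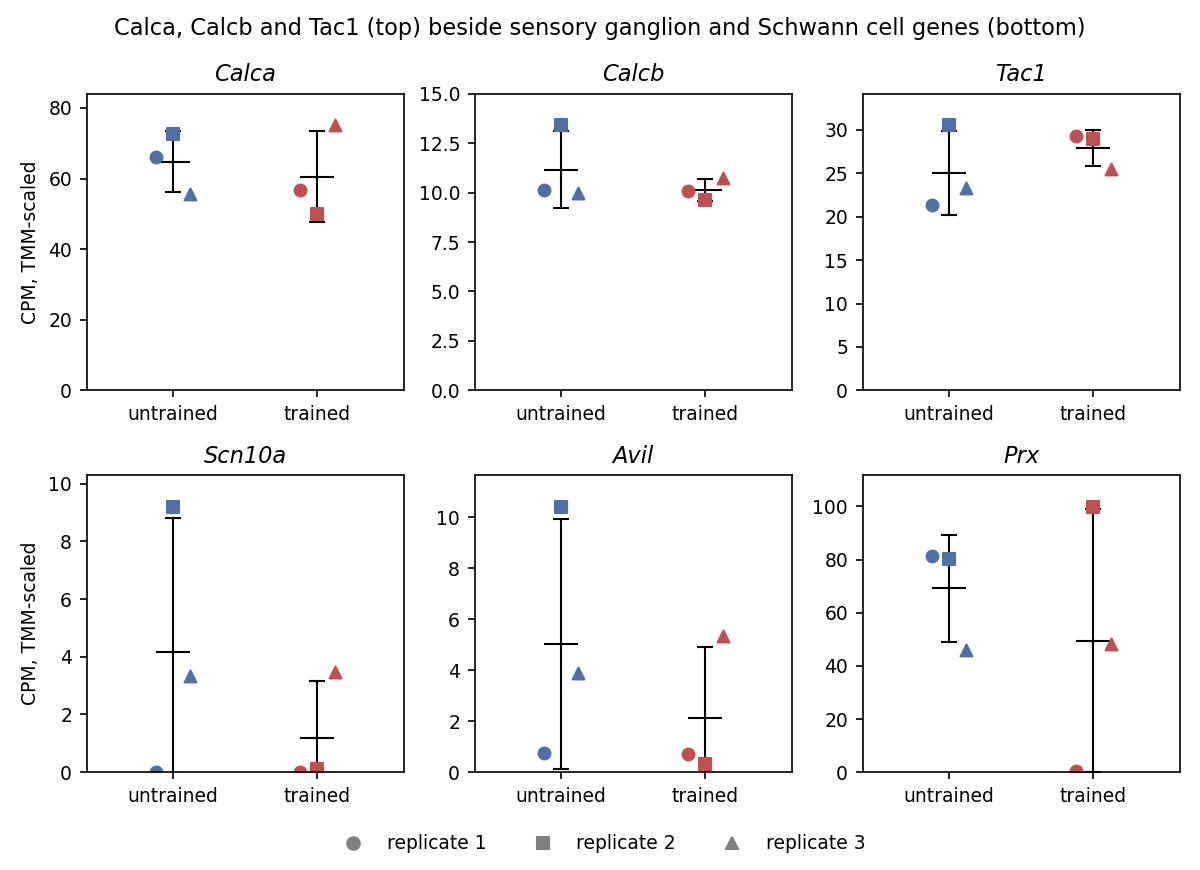
CPM (TMM-scaled, vertical axis from 0) of Calca, Calcb and Tac1 in the top row and of the sensory ganglion genes Scn10a and Avil and the Schwann cell gene Prx in the bottom row, by library, with group mean and SD. Scn10a and Avil are highest in untrained replicate 2, and Prx is lowest, at 0.581 CPM, in trained replicate 1.

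The motor neuron list, whose cells also make calcitonin gene-related peptide, had negative fold changes in 9 of 10 genes (median -0.24) and 0 genes past the adjusted threshold. It summed to 470 to 570 CPM in trained and 540 to 599 CPM in untrained cord. Its members at an unadjusted edgeR p below 0.05 were Slc5a7, the choline transporter gene, at -0.47 ± 0.16, and Chodl, a marker of fast motor neurons, at -0.50 ± 0.18.

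Granins and processing enzymes were the most abundant role group and the one with the smallest median, a log2 fold change of 0.012 over 9 genes. Positive values were seen in 6 and negative in 3. Pcsk1n and Pcsk1 were the highest, and the other 7 lay between -0.12 and 0.095. Pcsk1n encodes proSAAS, an inhibitor of prohormone convertase 1 and itself a granin-like peptide precursor. Pcsk1n was at 1074, 1033 and 921 CPM in the trained libraries, against 854, 664 and 844 in the untrained ones. All trained libraries were above all untrained ones, with untrained replicate 2 well below the other two untrained libraries. The means were 1009.5 ± 78.9 and 787 ± 107 CPM (SD, n = 3 per group), a 1.28-fold difference. The log2 fold change was 0.36 ± 0.10 (edgeR adjusted p = 0.292), and the adjusted p was 0.0418 in DESeq2, 0.00679 in edgeR without a filter on low counts and 0.0657 to 0.844 in the other alternatives. Without untrained replicate 2 the log2 fold change was 0.25.

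Pcsk1, the gene of the convertase that proSAAS inhibits, was at 33.6, 37.0 and 28.4 CPM in the trained libraries, against 28.7, 29.3 and 26.7 in the untrained ones. Trained replicate 3 lay within the untrained range, and the log2 fold change was 0.22 ± 0.10 (edgeR adjusted p = 0.497). It was 0.14 without trained replicate 2 and 0.34 without trained replicate 3. Pcsk2, the other main neuronal convertase, was at 0.023 ± 0.10. Whether Pcsk1 and Pcsk2 differ in their response was not tested.

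Cpe, the carboxypeptidase E gene, was the most highly expressed of the 48 genes per kilobase. It was at 1349, 1284 and 1319 CPM in the trained libraries, against 1283, 1323 and 1313 in the untrained ones. The 6 values lay close together, and the log2 fold change was 0.012 ± 0.08 (edgeR adjusted p = 0.974) with a 95% interval of -0.15 to 0.17. Pam, the amidating enzyme gene, was at 0.011.

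Chga, the chromogranin A gene, was at 355, 331 and 292 CPM in the trained libraries, against 297, 306 and 313 in the untrained ones. The trained libraries covered the whole range of the untrained ones, with a log2 fold change of 0.095 ± 0.08 (edgeR adjusted p = 0.740). Chgb (chromogranin B) was at -0.014 and Scg5 (7B2, the chaperone of convertase 2) at -0.037. Scg3 (secretogranin III) was at -0.12 ± 0.07 (edgeR adjusted p = 0.624). It was the single member with every trained library below every untrained one, against 8.69% of all genes tested. The nearest libraries were at 308 and 311 CPM. Scg3 was named for this pattern after its values were seen.

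**Figure D4:**
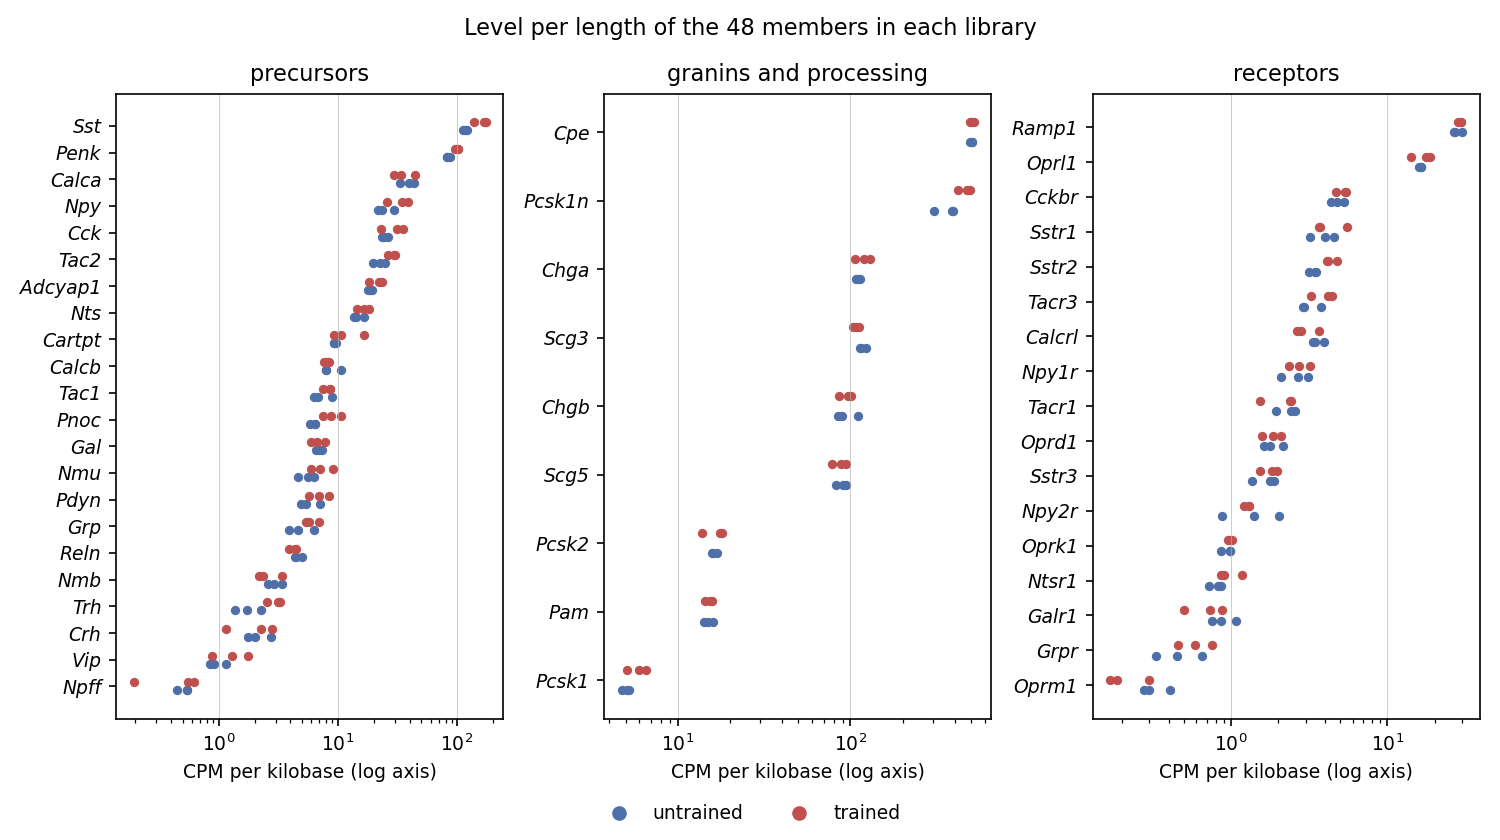
Level per length (CPM per kilobase of the listed gene length, log axis) of the 48 genes in each library, trained and untrained, ordered by the mean of all libraries within each role. Cpe and Pcsk1n lead the processing genes, Sst and Penk the precursors, and Ramp1 and Oprl1 the receptors.

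Compared per kilobase of the gene length in the table, the roles covered different ranges. Mean levels over all libraries ran from 5.47 (Pcsk1) to 503 CPM per kilobase (Cpe) for granins and processing, with Pcsk1n at 410 and Chga at 115. Among precursors they ran from 0.483 (Npff) to 138 (Sst), with Penk at 92.2 and Calca at 37.2 next. Among receptors they ran from 0.273 (Oprm1) to 28.4 (Ramp1), with Oprl1 at 16.5 and Cckbr at 4.98. Ramp1 and Oprl1 were above every other receptor in all 6 libraries. Ramp1 encodes the accessory protein that makes the calcitonin receptor-like receptor a receptor for calcitonin gene-related peptide.

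Over the 17 receptors the median log2 fold change was 0.067, with values positive in 12 and negative in 5. Sstr2, a somatostatin receptor gene, was at 8.94, 10.3 and 8.81 CPM in the trained libraries, against 7.43, 7.39 and 6.71 in the untrained ones. It was the single receptor of 17 whose groups did not overlap, against 8.13% of all genes tested apart higher and 8.69% lower. All 3 trained libraries were above, with a log2 fold change of 0.38 ± 0.15 (edgeR adjusted p = 0.426). Sstr1 was at 0.15 and Sstr3 at 0.089. The whole span of Sstr2 lies inside Slc39a11 on the opposite strand, and no source used here says whether reads were counted by strand. Slc39a11 itself had a log2 fold change of -0.068 ± 0.10.

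Among opioid receptors, Oprm1, the mu receptor gene, had the most negative log2 fold change of the 48 genes at a very low level. It was at 1.36, 2.41 and 1.49 CPM in the trained libraries, against 2.40, 2.22 and 3.26 in the untrained ones, or 24 to 39 and 37 to 51 read counts. Trained replicate 2 lay inside the untrained range. The log2 fold change was -0.60 ± 0.30 with a 95% interval of -1.25 to 0.055 (edgeR adjusted p = 0.526). Its span shares 152403 bases with Ipcef1 on the opposite strand (log2 fold change 0.086 ± 0.15), which had 1463 counts over all libraries against 230 for Oprm1.

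Oprl1, the nociceptin receptor gene, was the most abundant opioid-family receptor. It was at 65.9, 70.2 and 53.1 CPM in the trained libraries, against 59.3, 61.1 and 61.1 in the untrained ones. The trained values spread around the untrained ones on both sides, with a log2 fold change of 0.061 ± 0.09 (edgeR adjusted p = 0.872). Oprd1 (delta) was at 0.0013 and Oprk1 (kappa) at 0.047.

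Tacr1, the substance P receptor gene of dorsal horn projection neurons, was at 15.4, 15.7 and 9.87 CPM in the trained libraries, against 12.6, 16.5 and 15.7 in the untrained ones. Trained replicate 3 was the lowest of the 6. Its log2 fold change was -0.12 ± 0.18 (edgeR adjusted p = 0.862), and it was 0.08 without trained replicate 3. Tacr3, the neurokinin B receptor gene, was at 0.31 ± 0.15 (edgeR adjusted p = 0.518).

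Cckbr, the cholecystokinin B receptor gene, was at 15.3, 15.5 and 13.4 CPM in the trained libraries, against 13.7, 12.4 and 15.1 in the untrained ones. Ramp1 was at 89.7, 84.9 and 89.2 CPM in the trained libraries, against 81.1, 90.8 and 80.0 in the untrained ones. Both genes had overlapping groups, with log2 fold changes of 0.10 ± 0.13 and 0.067 ± 0.07 (edgeR adjusted p = 0.822 and 0.802). Calcrl, the receptor that Ramp1 completes, was at -0.24 ± 0.14 (edgeR adjusted p = 0.588). Calcrl is also expressed by endothelial cells, and the endothelial list was negative in 10 of 10 genes, with 0 past the adjusted threshold and sums of 506 to 591 CPM in trained and 590 to 710 CPM in untrained cord. The part of these cells in the Calcrl value was not tested. The other receptor genes had overlapping groups: the neuropeptide Y receptor genes Npy1r and Npy2r were at 0.074 and -0.17, Grpr (gastrin-releasing peptide) at 0.31, Ntsr1 (neurotensin) at 0.28 and Galr1 (galanin) at -0.33.

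Set beside the receptors of their peptides, 12 precursors formed 17 pairs with 17 receptor genes. Both log2 fold changes were positive in 11 pairs, the precursor alone was positive in 3 (Tac1 with Tacr1, Penk with Oprm1, Npy with Npy2r), both were negative in 2 (Gal with Galr1, Calca with Calcrl) and the receptor alone was positive in 1 (Calca with Ramp1). Pairs that repeat a precursor are not independent. Taken singly, 15 of 21 precursors, 12 of 17 receptors and 8123 of all 16909 genes tested were positive. Whether precursors and receptors changed together was not tested. Sst and Sstr2 made the single pair in which the groups were apart for both genes. Of all genes tested 8.13% had groups apart with trained libraries higher, and whether this pair stands out from that was not tested.

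**Figure D5:**
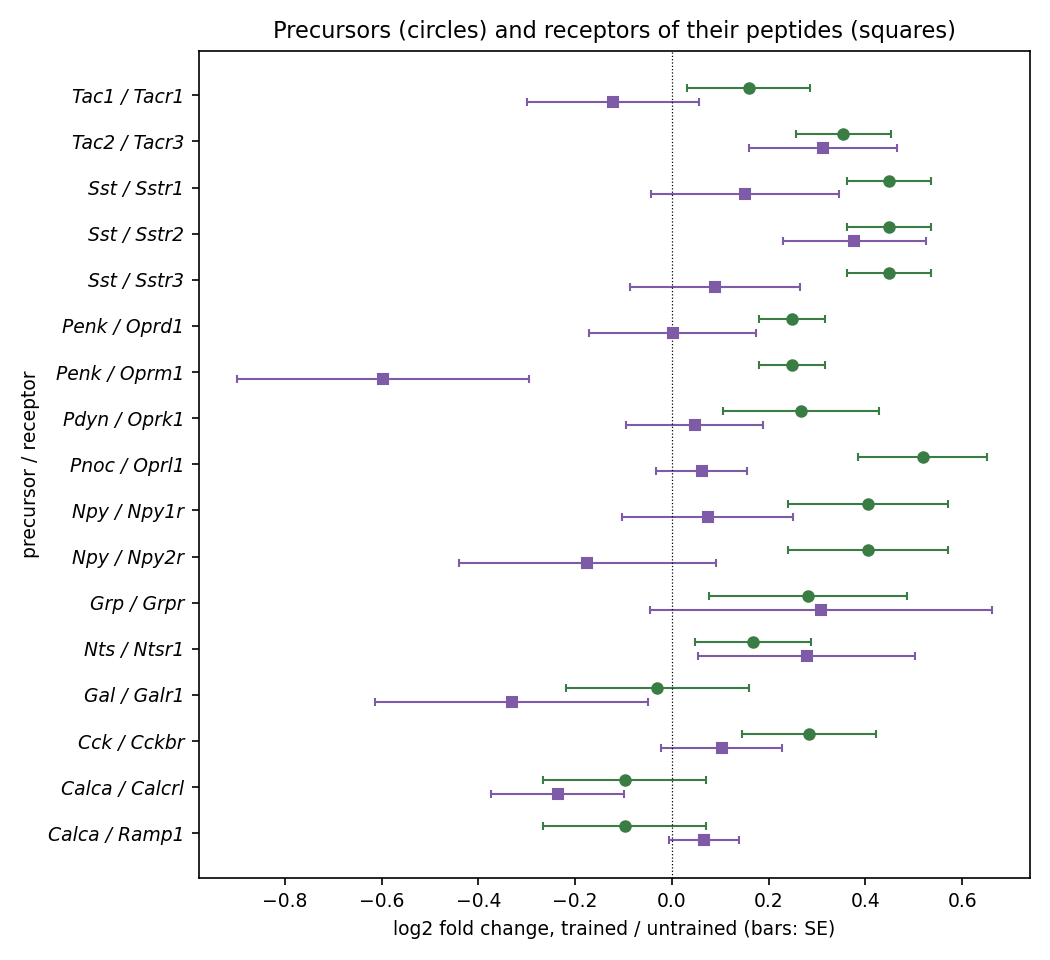
Log2 fold change (trained over untrained, horizontal axis, bars are SE) of each precursor (circle) and of a receptor for its peptide (square), 1 pair per line. In the Sst and Sstr2 line both lie to the right of 0, at 0.45 and 0.38, and in the Penk and Oprm1 line they lie on opposite sides, at 0.25 and -0.60.

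The libraries within each group did not contribute equally. Trained replicate 3 had the lowest level of the 3 trained libraries in 29 of 47 genes, and in 12 of 17 receptors. Trained replicate 1 had it in 7 genes and trained replicate 2 in 11. Among the untrained libraries, replicate 3 was lowest in 21 genes, replicate 1 in 17 and replicate 2 in 9. The same counts were not made over all genes tested, so these may not be particular to the members. The neuron list was also lowest in trained replicate 3, at 8795 CPM. When library sizes were set to the summed counts of the neuron list, a choice made after seeing the data, the log2 fold changes of Sst, Pnoc, Penk, Tac2 and Pcsk1n were 0.49, 0.55, 0.30, 0.40 and 0.40. No member passed that fit (edgeR adjusted p of 0.374 for Sst and 0.775 to 0.905 for the other 4), in which 1 gene of 16909 passed.

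The 10 markers of excitatory dorsal horn neurons lay at a median log2 fold change of 0.12, with 7 positive and 0 past the adjusted threshold. The list summed to 312 to 362 CPM in trained and 325 to 343 CPM in untrained cord. Its member at an unadjusted edgeR p below 0.05 was Tlx3, a transcription factor gene of these cells, at 0.46 ± 0.16. Inhibitory neuron markers had a median of 0.062 over 10 genes, with 6 positive and 0 past the adjusted threshold or an unadjusted p of 0.05, and summed to 1150.1 to 1362 CPM in trained and 1271 to 1389 CPM in untrained cord.

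Other genes of the same pathways, listed apart from the 48, gave no call at an adjusted p of 0.05 in edgeR. Of 36 further precursor genes 17 were tested, with 12 positive log2 fold changes and a median of 0.10. At an unadjusted edgeR p below 0.05, 3 were higher: Vgf, a granin-like precursor regulated by neurotrophins, at 0.29 ± 0.09, Npb (neuropeptide B) at 0.65 ± 0.19 and Pthlh, a parathyroid hormone-like peptide gene, at 0.58 ± 0.24. The single one lower was Edn1, the endothelin gene, at -0.79 ± 0.22. All 4 had groups that did not overlap. Of the 17 tested, 3 were apart higher and 3 lower (Edn1, Uts2b and Spx), against 8.13% and 8.69% of all genes tested.

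Of 24 further processing and degradation genes, all tested, 10 were positive (median -0.05). Pcsk6, another convertase gene, was at 0.24 ± 0.11 and Nln, which encodes the neurotensin-degrading enzyme neurolysin, at -0.23 ± 0.10, both at an unadjusted edgeR p below 0.05. Of 41 further receptor genes 34 were tested, 23 of them positive (median 0.05), and Ednrb, an endothelin receptor gene, was at -0.30 ± 0.13 with an unadjusted edgeR p of 0.0480. Groups were apart higher in 3 of these 34 (Ramp3, Lrp8 and Gpr83) and lower in 0, against 8.13% and 8.69% of all genes tested. In the 24 processing and degradation genes they were apart higher in 0 and lower in 2.

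Positions are those of the deposited table, whose ends match the GRCm38 annotation (GENCODE M21) for 44 of the 48 genes, all but Grp, Gal, Adcyap1 and Galr1. Sst (ENSMUSG00000004366) spans bases 23889573 to 23890958 of chromosome 16 and Penk (ENSMUSG00000045573) 4133531 to 4138819 of chromosome 4. Pnoc (ENSMUSG00000045731) lies at 65400673 to 65425472 of chromosome 14 and Tac2 (ENSMUSG00000025400) at 127724478 to 127731768 of chromosome 10. On chromosome 6 lie Trh (ENSMUSG00000005892) at 92242061 to 92244650 and Npy (ENSMUSG00000029819) at 49822710 to 49829507. Pcsk1n (ENSMUSG00000039278) spans 7919822 to 7924410 of chromosome X, Pcsk1 (ENSMUSG00000021587) 75089826 to 75134861 of chromosome 13 and Sstr2 (ENSMUSG00000047904) 113619342 to 113626028 of chromosome 11. Calca (ENSMUSG00000030669) spans 114631478 to 114636357 of chromosome 7 and Oprm1 (ENSMUSG00000000766) 6758506 to 7038198 of chromosome 10.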

How the data were processed

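Cord RNA (total, TRIzol) was read as 150 bp pairs, per the labels' protocols. The authors deposited 1 table of raw, unscaled counts for Ensembl genes, with symbols, coordinates and gene lengths in bases. Bowtie 0.12.2, mm8 and mm9 are named without a role, per the submitters' processing notes. The sources used here do not give the counter, annotation or strandedness.

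Counts were fitted with edgeR 4.0.16 in R 4.3.3 (TMM, filterByExpr, robust quasi-likelihood, group as the only term), with Benjamini-Hochberg adjustment over 16909 genes and a threshold of 0.05. A standard error is the log2 fold change divided by the square root of F. This fit was also run on simulated counts, and no result given here rests on that run. Alternatives were other scalings, DESeq2 1.42.0, limma-voom (limma 3.58.1), other filters, a replicate block and leaving out each library. No library pair agreed within counting noise.

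The members and lists were chosen with earlier results of these data known. Values per library are given for 18 members: those with an unadjusted p below 0.05, the 3 highest per kilobase and the 2 largest fold changes per role, and Tac1, Penk, Sst, Npy, Calca, Oprm1 and Tacr1. Prx was chosen as a Schwann cell gene after its values were seen, and some marker genes are not reported here. Promoter motifs were matched as exact letters.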

Additional observations from a re-analysis of the deposited data

How the results depend on the processing

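The 10 genes called over the whole table (1 higher, 9 lower) became 92 in DESeq2, 276 without a filter on low counts, 1 with scaling to the neuron list and 4 to 221 when 1 library was left out, the highest without trained replicate 3 and the lowest without trained replicate 2. Precursors called were 0 with all libraries, 1 in DESeq2, 3 without a filter and 0 to 4 when 1 library was left out, with 4 (Cck, Penk, Pnoc and Sst) without trained replicate 3. Processing genes called were 0, and 1 (Pcsk1n) in DESeq2 and without a filter. Receptors called were 0 in all of these fits. With 1 library left out the median log2 fold change ran from 0.15 to 0.33 for precursors, lowest without trained replicate 2 (0.15) and untrained replicate 3 (0.16), from -0.016 to 0.069 for processing genes and from -0.011 to 0.19 for receptors. RLE scaling, limma-voom and a minimum of 1 CPM in 3 libraries moved none of these counts by over 1.5 times, and the cause of the differences was not tested.

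The replicate block gave 5 genes over the table, 0 higher and 5 lower, and called 0 members. Same-numbered libraries did not deviate together (correlations of -0.18, -0.09 and -0.13), so the numbers were not taken as pairs, and no library correlated best with its own number.

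The genes whose sign changed under some setting were called in none. Chgb was at 0.010 with upper-quartile scaling and 0.032 with scaling to the neuron list, where Gal was at 0.011 and Scg5 at 0.0073. With 1 library left out the ranges were -0.38 to 0.20 for Crh, -0.15 to 0.059 for Gal, -0.26 to 0.021 for Calca, -0.21 to 0.015 for Calcb, -0.080 to 0.11 for Chgb, -0.098 to 0.054 for Scg5, -0.053 to 0.16 for Pcsk2, -0.0056 to 0.031 for Cpe, -0.031 to 0.069 for Pam, -0.23 to 0.080 for Tacr1, -0.076 to 0.27 for Sstr1, -0.038 to 0.20 for Sstr3, -0.10 to 0.12 for Oprd1, -0.011 to 0.091 for Oprk1, -0.020 to 0.19 for Oprl1, -0.067 to 0.23 for Npy1r and -0.43 to 0.16 for Npy2r. The median 95% interval reached 0.38 either side of the log2 fold change for receptors, 0.35 for precursors and 0.18 for granins and processing genes, and what part of this comes from depth was not tested.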

Other observations

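Glial and vascular markers beside these genes gave 0 calls at an adjusted p of 0.05 in edgeR. The microglia and macrophage list was negative in 10 of 10 genes (median log2 fold change -0.18) and summed to 971, 1046 and 1503 CPM in trained replicates 1, 2 and 3 and to 1259 to 1447 CPM in untrained cord. Its genes at an unadjusted edgeR p below 0.05 included Cx3cr1, the fractalkine receptor gene, at -0.32 ± 0.10. In the endothelial list (median -0.17) the genes below that p were Pecam1 at -0.39 ± 0.11, Flt1 at -0.36 ± 0.10, Abcb1a at -0.28 ± 0.10 and Slco1a4 at -0.22 ± 0.09. Astrocyte markers were positive in 3 of 10 genes (median -0.13), with Aldh1l1 (0.17), Aldoc (0.19), Slc1a2 (-0.19) and Slc1a3 (-0.18) below that p, and oligodendrocyte markers in 6 of 10 (median 0.016), with Aspa (-0.22). The Schwann cell list was negative in 8 of 9 genes tested (median -0.51), and all 9 were lowest in trained replicate 1.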
